A study of Homo sapiens with 6 samples.

Results

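The insulin-like growth factor (IGF) system was described in UE7T-9 cells, a human mesenchymal stem cell (MSC) line from bone marrow, with and without a knockout (KO) of SRRM4, a neural splicing regulator. The genes were the ligands IGF1 and IGF2, the receptors IGF1R and IGF2R, and the binding proteins IGFBP2, IGFBP3, IGFBP4, IGFBP5, IGFBP6 and IGFBP7, taken by gene symbol. These 10 symbols matched 11 of the 58735 gene records in the count table, since IGF2 has 2 records, and 8 of the 11 had enough reads to be among the 15341 genes tested. The control group was 3 libraries of UE7T-9 cells labelled wild type, and the SRRM4 KO group was 3 libraries of UE7T-9 cells labelled as the knockout. All cells were grown in DMEM. The KO line was made with a lentiviral CRISPR vector and was expanded by dilution to single cells, so that it stands for 1 clone, and a difference between this clone and the control line cannot be told apart from an effect of the knockout. The study describes it as an incomplete knockout, with some SRRM4 protein left. Whether the control cells carried an empty vector is not given in the sources used here.

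IGF1 and IGF2 are secreted growth factors that signal through the tyrosine kinase IGF1R, which recruits IRS adaptors and switches on the PI3K-AKT and MAP kinase pathways. IGF2R, also known as the cation-independent mannose 6-phosphate receptor, does not signal in this way but takes IGF2 and lysosomal enzymes into the cell. The IGF-binding proteins (IGFBPs) hold the ligands outside the cell, extend their life and limit or deliver them to the receptor, and proteases such as PAPPA and HTRA1 release the ligand by cutting them. Bone marrow stromal cells and osteoblasts secrete several IGFBPs, and the system is known as a regulator of bone formation.

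Depth was even, at 21496117 to 23868323 counts per library. A count of 0 allows up to 3 counts, or 0.123 to 0.139 CPM (counts scaled to a common library size with TMM factors), for counting error only. Library control 1 had 22403 genes with a count and the other 5 had 20127 to 20674. SRRM4 itself had 0 counts in all 6 libraries, so the knockout could not be checked from its RNA. The labels do not say that the libraries of a group came from separate cultures, so the p-values measure only the spread between these libraries, which may be technical. Mesenchymal markers were present in every library, although their summed level was 46534 to 50798 CPM in control and 18798 to 20914 CPM in SRRM4 KO. The collagens COL1A1, COL1A2 and COL3A1 made up 92.5% of this sum in control and 87.1% in SRRM4 KO, and the other 9 markers summed to 3512 to 3786 and 2519 to 2647 CPM. All 12 of these markers passed the test, against 41.6% of all tested genes, 10 of them lower and 2 (VIM and NT5E) higher, and their part in the results was not tested.

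Of the 8 tested genes, 6 were lower in SRRM4 KO with an adjusted p under 0.05 in edgeR's quasi-likelihood test (Benjamini-Hochberg over all 15341 genes), 0 were higher and 2 did not pass. Over all tested genes, 20.9% passed as lower, 20.7% as higher and 41.6% in either direction. IGFBP2, IGFBP3, IGFBP4 and IGFBP5 also fell by more than 1 on the log2 scale, 4 of 8 against 7.14% of all tested genes, whereas 0 of 8 were called higher against 5.45%. The CPM values of the groups did not overlap for 6 of the 8, against 51.8% of all tested genes. The median log2 fold change, as SRRM4 KO minus control, was -1.10 over the 8 genes and -0.01 over all tested genes. In bulk RNA, fewer cells of a type and less RNA per cell cannot be told apart.

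**Figure D1:**
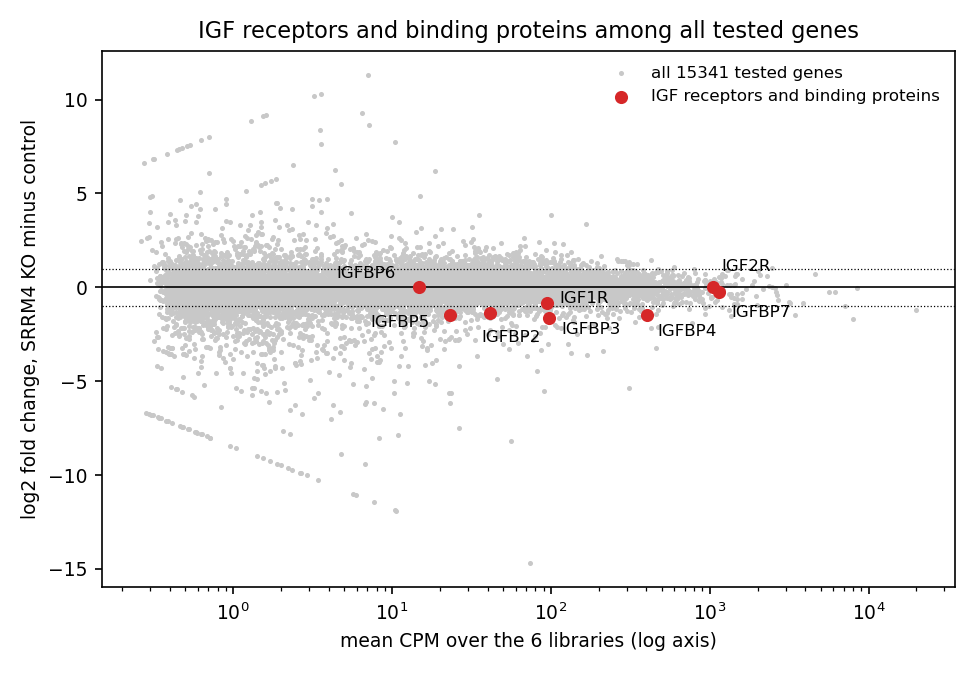
Log2 fold change (SRRM4 KO minus control) against mean CPM over the 6 libraries (log axis) for all 15341 tested genes in grey and the 8 tested genes of the IGF system in red, with dotted lines at a log2 fold change of 1 and -1. IGFBP2, IGFBP3, IGFBP4 and IGFBP5 lie between -1.36 and -1.62, and IGF2R and IGFBP7, at the right, lie near 0.

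The bases just before the transcription start are shown for the 4 binding proteins that fell past the threshold and for both receptors, of which IGF1R fell and IGF2R did not pass. Each run is the 100 bases before a RefSeq start (GRCh38.p14), read on the gene's own strand. IGFBP2 has 3 RefSeq starts, of which the one nearest to the start of a principal GENCODE transcript was used, and the other 5 genes have 1. Capitals mark exact matches, on either strand, to TATAAA (the TATA box), CCAAT (the CCAAT box), GGGCGG (the GC box bound by SP1) and CACGTG (an E-box). None of these motifs overlaps another in the runs shown.
IGFBP2: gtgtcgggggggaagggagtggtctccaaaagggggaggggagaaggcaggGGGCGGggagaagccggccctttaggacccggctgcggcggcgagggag
IGFBP3: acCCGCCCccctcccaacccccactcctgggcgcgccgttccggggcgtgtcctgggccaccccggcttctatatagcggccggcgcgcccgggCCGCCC
IGFBP4: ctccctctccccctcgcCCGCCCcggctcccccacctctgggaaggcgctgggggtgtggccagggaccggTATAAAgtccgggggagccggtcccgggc
IGFBP5: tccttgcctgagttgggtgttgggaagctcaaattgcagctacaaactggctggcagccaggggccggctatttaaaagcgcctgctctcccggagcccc
IGF1R: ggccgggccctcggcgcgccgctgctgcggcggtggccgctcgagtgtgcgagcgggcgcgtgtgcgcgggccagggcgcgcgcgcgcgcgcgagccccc
IGF2R: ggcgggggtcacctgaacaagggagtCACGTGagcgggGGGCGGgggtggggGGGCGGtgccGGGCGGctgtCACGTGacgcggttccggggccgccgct

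The IGFBP2 run lies at chr2:216633320-216633419 on the plus strand, where 25 of its bases also belong to an annotated IGFBP2 exon, and 2 bases of the IGFBP3 run belong to an IGFBP3 exon. The others lie at chr7:45921273-45921372 on the minus strand (IGFBP3), chr17:40443350-40443449 on the plus strand (IGFBP4), chr2:216695550-216695649 on the minus strand (IGFBP5), chr15:98648439-98648538 on the plus strand (IGF1R) and chr6:159968982-159969081 on the plus strand (IGF2R). None of the 4 motifs was found in all of the printed runs of the binding proteins. IGFBP2 has 1 GC box, IGFBP3 has 2, IGFBP4 has 1 beside the single exact TATAAA match of the set, and IGFBP5 has no exact match to the 4 motifs. Variant forms of the motifs were not searched for, so a run without a match may still hold one. IGF2R has 3 GC boxes and 2 E-boxes, and IGF1R has no match in a run of 87% G and C. Over 34943 RefSeq promoter windows of this length, 31.2% held the GC box, 5.0% the TATA box, 18.1% the CCAAT box and 3.41% the E-box. A match is a description of letters and not a binding site. The RefSeq promoter table matched 8 of the 10 symbols.

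Counts of the ligand genes were at or near 0. IGF1 (ENSG00000017427), on the minus strand of chromosome 12 from 102395874 to 102481744 in GRCh38, had 1, 0 and 3 counts in control replicates 1 to 3 and 0, 0 and 1 in SRRM4 KO. These counts are at or under the limit of 3 in every library, so no fold change is given. Only 17.6% of the exonic bases of IGF1 belong to no other annotated gene, and reads in the shared bases may not have been counted for it. IGF2 is annotated as ENSG00000167244 (chromosome 11, minus strand, 2129112 to 2149603) and as ENSG00000284779 (2129112 to 2158658), and both records had 0 counts in all 6 libraries. The IGF2 records share their exons with each other and with the read-through gene INS-IGF2, and 25% and 9.98% of their bases belong to no other gene. Of 312 protein-coding genes with no exonic base of their own, 92.6% were at 0 in all libraries, against 23.3% of the 11097 coding genes that shared no base. The IGF2 records differ from these 312 genes in having 1744 and 584 bases of their own, and the 0 counts cover those too. Whether reads in the shared bases of IGF2 were left out of the counts was not tested, so these counts do not show that its transcript was absent.

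IGF1R, the signalling receptor, was lower in SRRM4 KO, and IGF2R, the clearance receptor, was not distinguishable between the groups. IGF1R (ENSG00000140443, chromosome 15, plus strand, 98648539 to 98964530) stood at 122, 122 and 121 CPM in control replicates 1 to 3 and at 68.6, 67.0 and 69.2 CPM in SRRM4 KO. The replicates of each group lay close together and the groups were far apart. The level fell 1.78-fold, a log2 fold change of -0.83 (SE 0.081, 95% CI -1.01 to -0.66, adjusted p = 8.73e-07, n = 3 per group). IGF2R (ENSG00000197081, chromosome 6, plus strand, 159969099 to 160113507) stood at 1137, 1023 and 974 CPM in control and at 1103, 1017 and 1034 CPM in SRRM4 KO. The groups overlapped, with a log2 fold change of 0.01 (SE 0.072, 95% CI -0.15 to 0.16, adjusted p = 0.936). Both receptors have no exonic base in common with another gene.

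**Figure D2:**
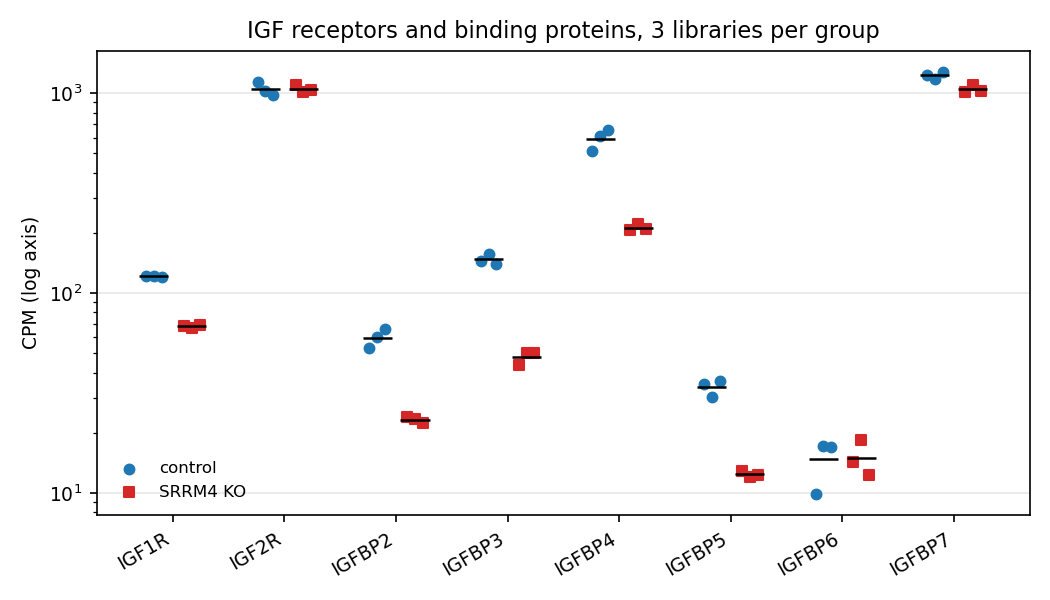
CPM (log axis) of the 8 tested genes in each library, with control as blue circles, SRRM4 KO as red squares and bars at the group means (n = 3 per group). The groups are separate for IGF1R, IGFBP2, IGFBP3, IGFBP4, IGFBP5 and IGFBP7 and overlap for IGF2R and IGFBP6.

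IGFBP3, IGFBP4, IGFBP5 and IGFBP2 fell by similar amounts, between 2.56-fold and 3.07-fold, although their levels in control spanned 23.8 to 1214 TPM (per length). IGFBP3, the main carrier of IGFs in serum and an inhibitor of growth in many cultured cells, fell the most. The gene (ENSG00000146674, chromosome 7, minus strand, 45912245 to 45921874) stood at 145, 157 and 141 CPM in control and at 43.8, 50.1 and 50.3 CPM in SRRM4 KO. Every KO library was below every control library, and the log2 fold change was -1.62 (SE 0.093, 95% CI -1.82 to -1.42, adjusted p = 3.23e-09).

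IGFBP4, which holds IGFs until the protease PAPPA cuts it, fell 2.79-fold. The gene (ENSG00000141753, chromosome 17, plus strand, 40443461 to 40457731) stood at 513, 611 and 655 CPM in control and at 206, 222 and 210 CPM in SRRM4 KO. The control libraries varied more than the KO libraries, with an SD of 72.6 against 8.65 CPM, and the groups did not overlap. The log2 fold change was -1.48 (SE 0.091, 95% CI -1.67 to -1.28, adjusted p = 6.69e-09).

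IGFBP5 and IGFBP2 lie tail to tail on chromosome 2, with 7668 bases between them. IGFBP5, which binds extracellular matrix and is abundant in bone (ENSG00000115461, minus strand, 216672105 to 216695525), stood at 35.3, 30.2 and 36.4 CPM in control and at 12.9, 12.0 and 12.3 CPM in SRRM4 KO. The log2 fold change was -1.45 (SE 0.123, 95% CI -1.72 to -1.19, adjusted p = 2.1e-07). The fall of IGFBP2, which carries an integrin-binding motif, was of similar size. IGFBP2 (ENSG00000115457, plus strand, 216632828 to 216664436) stood at 53.0, 60.4 and 65.9 CPM in control and at 23.9, 23.6 and 22.4 CPM in SRRM4 KO, a log2 fold change of -1.36 (SE 0.108, 95% CI -1.59 to -1.13, adjusted p = 1.05e-07). The confidence intervals of these 4 binding proteins overlap one another, and differences between their falls were not tested.

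IGFBP6 did not pass the test, and IGFBP7 fell by a small amount. IGFBP6, which prefers IGF2 over IGF1 (ENSG00000167779, chromosome 12, plus strand, 53097436 to 53102345), stood at 9.92, 17.3 and 17 CPM in control and at 14.3, 18.5 and 12.3 CPM in SRRM4 KO. Control 1 was the lowest of the 6 libraries and the groups overlapped, with a log2 fold change of 0.03 (SE 0.202, 95% CI -0.40 to 0.46, adjusted p = 0.917). Without control 1 the log2 fold change was -0.19. The interval leaves room for a fall of up to 0.40, which is smaller than the falls of IGFBP2, IGFBP3, IGFBP4 and IGFBP5. IGFBP7, a matrix-associated relative with low affinity for IGFs (ENSG00000163453, chromosome 4, minus strand, 57030773 to 57110385), stood at 1236, 1177 and 1279 CPM in control and at 1018, 1094 and 1024 CPM in SRRM4 KO. The groups did not overlap, but the fall was only 1.18-fold (log2 fold change -0.24, SE 0.066, 95% CI -0.38 to -0.10, adjusted p = 0.00915). Of the exonic bases of IGFBP7, 81.1% belong to no other gene.

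**Figure D3:**
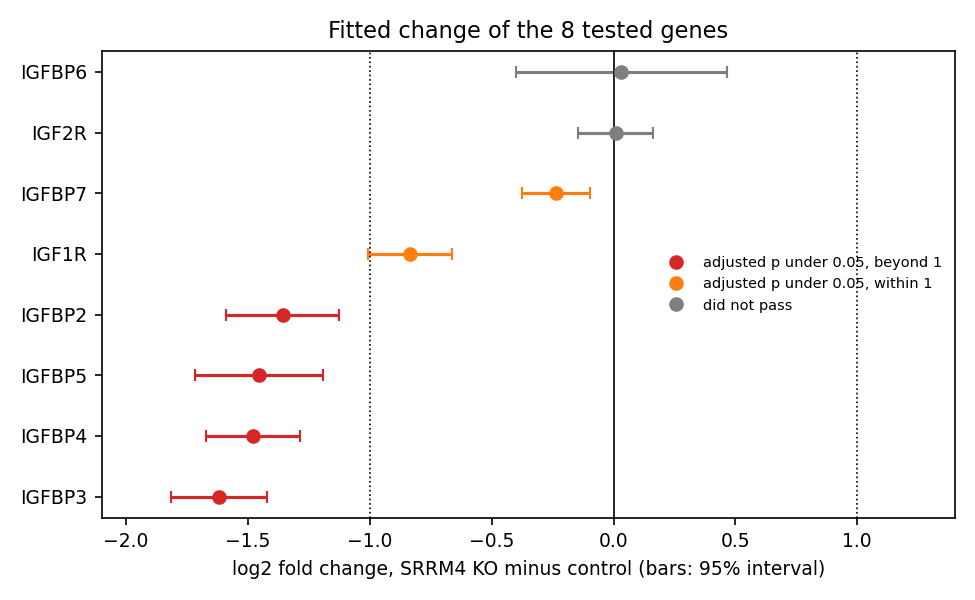
Log2 fold change (SRRM4 KO minus control, n = 3 per group) of the 8 tested genes with 95% confidence intervals from edgeR's fit. The intervals of IGFBP2, IGFBP3, IGFBP4 and IGFBP5 lie wholly below -1, those of IGF1R and IGFBP7 lie below 0, and those of IGF2R and IGFBP6 span 0.

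By itself a comparison of 3 against 3 CPM values cannot give an exact two-sided permutation p under 0.10. That smallest value was reached by the 6 genes that passed the test across all genes. It was 0.9 for IGF2R and 1 for IGFBP6. A p of 0.10 is reached wherever the groups do not overlap, as for 51.8% of all tested genes, so it repeats that count.

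Levels were set side by side between genes only per length, as TPM, which divides each count by the gene length in the table and scales every library to the same sum. In control, IGFBP7 was the highest at 2880 ± 152 TPM (SD, n = 3), ahead of IGFBP4 at 1214 ± 117, IGF2R at 265 ± 29 and IGFBP3 at 146 ± 8.40 TPM. IGFBP2 at 56.5 ± 4.73, IGFBP6 at 49.1 ± 12.7 and IGF1R at 39.4 ± 1.29 TPM followed, and IGFBP5 was the lowest of the 8 at 23.8 ± 2.63 TPM. IGFBP6 overlapped both of its neighbours in this order, whereas IGFBP2 was above IGF1R in every control library.

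In SRRM4 KO the first 3 places stayed with IGFBP7 at 2444 ± 87.2, IGFBP4 at 436 ± 16.5 and IGF2R at 266 ± 11.2 TPM. IGFBP6 at 50.4 ± 10.1 and IGFBP3 at 47.4 ± 3.92 TPM overlapped, as did IGF1R at 22.1 ± 0.576 and IGFBP2 at 22.1 ± 0.500 TPM. IGFBP5 was again the lowest, at 8.68 ± 0.308 TPM.

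IGFBP7 and IGFBP4 made up most of the binding protein transcripts in both groups. The summed level of IGFBP2 to IGFBP7 was 4340, 4226 and 4542 TPM in control and 2909, 3133 and 2985 TPM in SRRM4 KO. IGFBP7 took 65.9% ± 2.62 of this sum in control and 81.2% ± 0.166 in SRRM4 KO (SD, n = 3). IGFBP4 took 27.8% ± 2.32 and 14.5% ± 0.113, and the other 4 together took 6.31% ± 0.421 and 4.27% ± 0.210. Within these 4, IGFBP6 had a share of 1.12% ± 0.293 in control and 1.67% ± 0.281 in SRRM4 KO. Without IGFBP7, the sum was 1490 ± 128 TPM in control and 565 ± 26.4 TPM in SRRM4 KO. These shares are a description and were not tested.

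**Figure D4:**
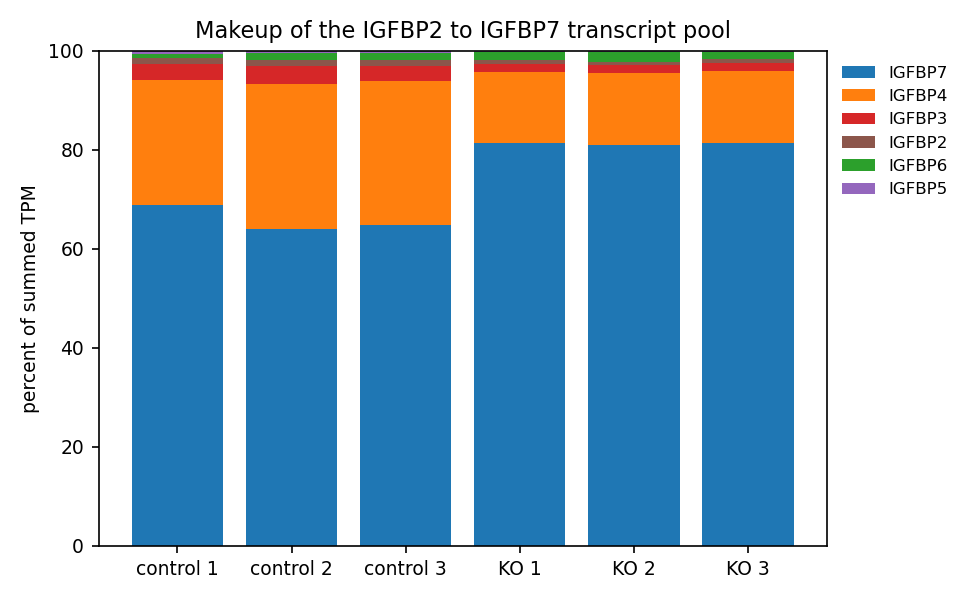
Percent of the summed TPM of IGFBP2 to IGFBP7 taken by each gene, as 1 stacked bar per library. IGFBP7 takes 65.9% on average in the 3 control libraries and 81.2% in the 3 SRRM4 KO libraries.

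The median over tested genes within 5 Mb on either side was nearer to 0 than the gene itself for IGFBP2, IGFBP3, IGFBP4, IGFBP5 and IGF1R. This median log2 fold change was -0.13 around IGFBP3 (47 genes), -0.01 around IGFBP4 (184 genes), -0.28 around IGFBP2 and IGFBP5 (57 genes) and 0.04 around IGF1R (27 genes). These genes were taken because they fell, so a median nearer to 0 was likely beforehand. It was -0.05 around IGFBP7, also nearer to 0 than the gene, and -0.02 around IGF2R and -0.07 around IGFBP6, further from 0. Over the whole chromosome it was -0.25 for chromosome 2 (IGFBP2 and IGFBP5) and -0.25 for chromosome 7 (IGFBP3), in the direction of those falls, 0.21 for chromosome 17 (IGFBP4) and 0.07 for chromosome 15 (IGF1R), against -0.01 over all tested genes. The part of these chromosome shifts in the falls was not tested.

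The other genes of the pathway were taken from 9 lists with 85 tested genes in all. Of these, 23.5% passed as higher and 40% as lower, against 20.7% and 20.9% of all tested genes. Past the fold threshold there were 4 higher (4.71%) and 8 lower (9.41%), close to the 5.45% and 7.14% of all tested genes. Of the 54 genes that passed, 12 no longer did under at least 1 alternative setting, with the test against the fold threshold set aside. These shares are descriptions, and the lists were not tested as sets.

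Among 9 tested proteases that cut IGFBPs and inhibitors of those proteases, 4 were lower (44.4%, against 20.9% of all tested genes), 2 were higher (22.2%, against 20.7%) and 3 did not pass. CTSD, one of the 4 that were lower, no longer passed when any 1 library other than control 1 was left out. HTRA1, a secreted serine protease that cuts IGFBP5 among other matrix proteins, stood at 790, 716 and 781 CPM in control and at 167, 186 and 175 CPM in SRRM4 KO. The fall was 4.33-fold (log2 fold change -2.11, SE 0.078, adjusted p = 3.82e-11). PAPPA, the metalloprotease that cuts IGFBP4, was 81.1 ± 7.70 CPM in control and 61.9 ± 5.22 CPM in SRRM4 KO (log2 fold change -0.39, SE 0.10, adjusted p = 0.00554). PAPPA shares exonic bases with its antisense gene PAPPA-AS1, and the libraries are non-stranded.

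The stanniocalcins STC1 and STC2, which are known to block PAPPA, moved in opposite directions. STC1 stood at 14.5, 15 and 13.5 CPM in control and at 62.0, 66.1 and 62.8 CPM in SRRM4 KO, a rise of 4.43-fold (log2 fold change 2.15, SE 0.104, adjusted p = 4.98e-10). STC2 fell from 570 ± 54.4 to 387 ± 8.92 CPM (log2 fold change -0.56, SE 0.080, adjusted p = 4.72e-05). ADAM12, a metalloprotease that cuts IGFBP3 and IGFBP5 and that was named after its values were seen, rose from 155 ± 7.80 to 267 ± 8.06 CPM (log2 fold change 0.78, adjusted p = 1.2e-06).

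**Figure D5:**
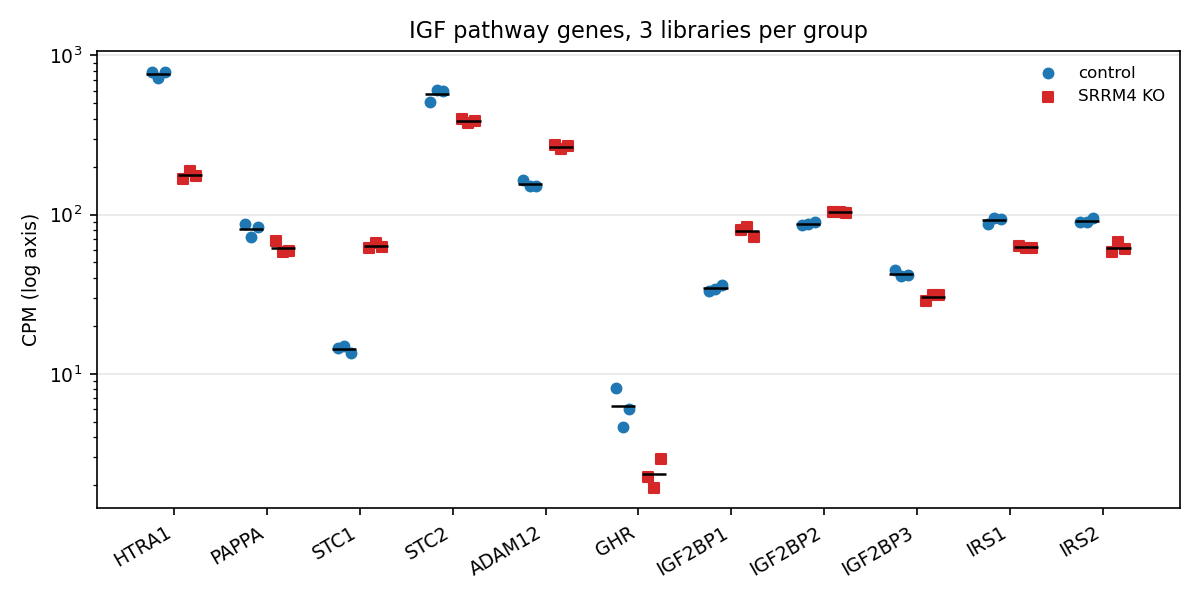
CPM (log axis) in each library for proteases and protease inhibitors (HTRA1, PAPPA, STC1, STC2, ADAM12), GHR, the 3 IGF2 mRNA-binding proteins, IRS1 and IRS2, with control as blue circles, SRRM4 KO as red squares and bars at group means (n = 3 per group). STC1, ADAM12, IGF2BP1 and IGF2BP2 are higher in every KO library than in every control library, and the other 7 genes are lower in every KO library.

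Downstream of IGF1R, genes moved in both directions. The adaptors IRS1 and IRS2 fell. IRS1 was 92.3 ± 4.58 CPM in control and 62.3 ± 1.25 CPM in SRRM4 KO (log2 fold change -0.57, SE 0.086, adjusted p = 8.04e-05), and IRS2 was 91.5 ± 2.67 and 61.9 ± 4.43 CPM (log2 fold change -0.56, SE 0.089, adjusted p = 1.2e-04). Of the 28 tested adaptors and PI3K-AKT genes, 9 were lower (32.1%, against 20.9% of all tested genes), 6 were higher (21.4%, against 20.7%) and 13 did not pass, with a median log2 fold change of -0.12. Among those that rose, the adaptor GRB2 went from 145 ± 10.9 to 223 ± 8.19 CPM (log2 fold change 0.62, SE 0.083, adjusted p = 2.36e-05), and the PI3K catalytic subunits PIK3CB and PIK3CD had log2 fold changes of 0.76 and 0.83. The adaptor SHC1 did not pass (0.01, adjusted p = 0.917). AKT2, one of the 6 that were higher, no longer passed with upper-quartile factors or without control 3, SRRM4 KO 1 or SRRM4 KO 2 (adjusted p up to 0.182). The single gene of this list called past the fold threshold was GRB14, an adaptor that restrains insulin receptor signalling, which had 48, 27 and 48 counts in control libraries against 2, 17 and 15 in the KO libraries (log2 fold change -1.92, SE 0.566, adjusted p = 0.013). It was not called without control replicate 3, where its adjusted p was 0.0508.

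Of 11 tested genes that FOXO factors activate when AKT is low, 4 fell (36.4%, against 20.9% of all tested genes), 2 rose (18.2%, against 20.7%) and 5 did not pass. BCL6, a transcriptional repressor among the 4 that fell, no longer passed with no filter, with the replicate block or without some single libraries (adjusted p up to 0.146). PIK3IP1, which restrains PI3K, fell from 19.4 ± 3.95 to 6.0 ± 1.26 CPM (log2 fold change -1.69, SE 0.186, adjusted p = 3.36e-06). KLF15, a metabolic transcription factor, fell from 10.8 ± 1.48 to 4.19 ± 0.653 CPM (log2 fold change -1.37, SE 0.187, adjusted p = 2.88e-05).

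The growth hormone receptor GHR, which drives IGF1 transcription in liver, stood at 8.12, 4.64 and 6.0 CPM in control and at 2.24, 1.93 and 2.91 CPM in SRRM4 KO (log2 fold change -1.41, SE 0.261, adjusted p = 4.89e-04). Of the 5 genes of the growth hormone axis, 3 fell (60%, against 20.9% of all tested genes) and 2 did not pass. All 3 IGF2 mRNA-binding proteins, which bind IGF2 and other transcripts, passed the test, 2 higher and 1 lower, against 41.6% of all tested genes in either direction, although IGF2BP2 no longer passed with no filter, with the replicate block or when any 1 library other than control 1 was left out, and its adjusted p reached 0.0992. IGF2BP1 rose from 34.4 ± 1.43 to 78.7 ± 5.65 CPM (log2 fold change 1.2, SE 0.096, adjusted p = 1.18e-07) and IGF2BP2 from 87.5 ± 1.99 to 103 ± 0.610 CPM (log2 fold change 0.24, adjusted p = 0.0265), whereas IGF2BP3 fell from 42.5 ± 2.06 to 30.3 ± 1.55 CPM (log2 fold change -0.49, adjusted p = 0.00123).

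Of 6 tested relatives of the family, 2 fell and 2 rose (33.3% each, against 20.9% and 20.7% of all tested genes) and 2 did not pass. INSR, the insulin receptor, was 27.7 ± 3.47 CPM in control and 26.6 ± 2.61 CPM in SRRM4 KO (log2 fold change -0.06, 95% CI -0.33 to 0.21, adjusted p = 0.749). IGFBP1, the binding protein typical of liver, was 3.36 ± 0.549 and 2.91 ± 0.260 CPM (adjusted p = 0.546). NOV, a matricellular protein with an IGFBP-like domain, rose from 57.8 ± 8.27 to 117 ± 9.24 CPM (log2 fold change 1.01, adjusted p = 2.53e-06), and KAZALD1, an IGFBP-related secreted protein, fell from 28.7 ± 5.0 to 14.3 ± 1.90 CPM (log2 fold change -1.01, adjusted p = 7.55e-05). Both lie at the fold threshold of 1 and crossed it when some single libraries were left out, with log2 fold changes of 0.91 to 1.11 for NOV and -1.15 to -0.91 for KAZALD1. NOV was also not called with upper-quartile factors, with at least 10 counts in every library or with protein-coding genes only.

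Among 8 tested cell-surface partners of the IGFBPs, 5 fell (62.5%, against 20.9% of all tested genes), 2 rose (25%, against 20.7%) and 1 did not pass. RTN4R and ITGA5, which were among the 5 that fell, no longer passed without some single libraries (adjusted p up to 0.0572 and 0.123). TMEM219, a receptor for IGFBP3, fell from 59.1 ± 5.40 to 43.4 ± 1.87 CPM (log2 fold change -0.44, SE 0.10, adjusted p = 0.00216). SDC1, the heparan sulfate proteoglycan syndecan-1, rose from 207 ± 24.1 to 490 ± 52.0 CPM (log2 fold change 1.24, SE 0.10, adjusted p = 1.15e-07). Of 7 tested genes of mannose 6-phosphate sorting, the pathway that IGF2R serves, 2 fell and 2 rose (28.6% each, against 20.9% and 20.7% of all tested genes), 3 did not pass and 0 were past the fold threshold. GNPTAB, GGA1 and NAGPA, 3 of the 4 that passed, no longer did when some single libraries were left out, with adjusted p up to 0.205, 0.155 and 0.058.

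Of 8 tested neighbours of IGF2 in its imprinted region on chromosome 11, 4 fell (50%, against 20.9% of all tested genes), 2 rose (25%, against 20.7%) and 2 did not pass. SLC22A18, one of the 4 that fell, no longer passed without some single libraries (adjusted p up to 0.17). H19, the imprinted non-coding RNA beside IGF2, had 0 counts in all 6 libraries. CDKN1C, an imprinted inhibitor of cell division, had 51, 58 and 91 counts in control and 6, 1 and 1 in SRRM4 KO (log2 fold change -4.64, SE 0.588, adjusted p = 1.43e-05). The size of this fall depends on SRRM4 KO replicate 1, since the other KO libraries hold 1 count each, under the limit of 3. Without that library the fall was larger and still called, but no fold change is given. Leaving out any other single library gave log2 fold changes of -4.79 to -4.23. KCNQ1OT1, an imprinted non-coding RNA of the same region, had 64, 44 and 46 counts in control and 18, 29 and 16 in SRRM4 KO (log2 fold change -1.36, SE 0.383, adjusted p = 0.00987). It was not called without control replicate 1, where its adjusted p was 0.0548.

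Markers of other cell types were summed in each library. Summed endothelial markers were 22.7 to 26.1 CPM in control and 4.43 to 5.86 CPM in SRRM4 KO, where TEK and KDR fell. Of the 6 endothelial markers 3 were tested, of which 2 passed as lower (against 20.9% of all tested genes) and 1 did not pass. Summed hepatocyte markers were 4.34 to 5.69 and 2.11 to 2.86 CPM, with APOB and APOA1 at 0 in all libraries. Epithelial markers were 1.72 to 2.82 and 1.91 to 3.28 CPM. Adipocyte markers were 0.185 to 0.696 and 0.287 to 0.364 CPM, with ADIPOQ, LEP and CIDEC at 0. Markers of the human embryonic kidney line commonly used to package lentivirus were 3.67 to 5.15 CPM in control and 6.45 to 6.78 CPM in SRRM4 KO, with PAX2 and LHX1 at 0. Only 1 of these 5 markers was tested, and it did not pass (log2 fold change 0.38).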

How the data were processed

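RNA of 3 control and 3 SRRM4 KO libraries of UE7T-9 cells was sequenced as non-stranded mRNA. The table that the authors deposited holds unnormalized read counts of 58735 genes, with their symbols, coordinates and lengths. The submitters' processing notes name HISAT2 2.0.5, featureCounts 1.5.0-p3 and DESeq2. The genome build, annotation and counting options are not given in the sources used here, so reads in bases shared by several genes may have been left out or split. All 58735 IDs had the same start and end in GENCODE release 29 (GRCh38), which was used for exons and shared bases. Promoter sequences are RefSeq's (GRCh38.p14).

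Samples were grouped by their labels. Counts were tested with edgeR 4.0.16 in R 4.3.3 (TMM, filterByExpr, prior count 0.125, quasi-likelihood test, Benjamini-Hochberg over 15341 genes), with group as the single term. A gene passed with an adjusted p under 0.05 and was called with a log2 fold change beyond 1 as well. SE is the log2 fold change over the square root of F. Depth was 21496117 to 23868323 counts. Same-group libraries differed beyond sampling noise (chi-square per degree of freedom 4.93 to 21.4), so none was counted as a duplicate. Control 1 stood apart, at 20.9 against control 2 and 21.4 against control 3, whereas control 2 against control 3 was 5.44.

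The genes, the pathway and marker lists and the naming rule were chosen with earlier results of these data known. Text names all 10 IGF genes, every called pathway gene (at most 3 per direction for the adaptor and FOXO lists), SRRM4 and 12 set genes: INSR, IGFBP1, PAPPA, STC1, STC2, IGF2BP1, IGF2BP2, IGF2BP3, IRS1, IRS2, H19 and TMEM219. No p-value was adjusted over a list alone. The result of the blood cell marker list is not reported here. ADAM12, GRB2, SHC1, PIK3CB, PIK3CD, AKT2, GNPTAB, GGA1, NAGPA, BCL6, CTSD, RTN4R, ITGA5 and SLC22A18 were named after their values were seen. Alternatives were DESeq2 1.42.0, DESeq2 size factors, upper-quartile factors, a stricter filter (10 counts or more in each library), no filter, a replicate block, each library left out, a test against the fold threshold (glmTreat), no fold threshold, protein-coding genes only, and transcript length for TPM. The procedures were tested on simulated data.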

Additional observations from a re-analysis of the deposited data

How the results depend on the processing

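IGFBP2, IGFBP3, IGFBP4 and IGFBP5 were called lower, and 0 IGF genes higher, under every alternative with a fold threshold. With no fold threshold 6 were lower. Against the fold threshold (glmTreat), IGF1R (-0.83) and IGFBP7 (-0.24) had an adjusted p of 1, and the called pathway genes were 2 higher and 3 lower (20 and 34 with no fold threshold) and those of all genes 360 higher and 577 lower (3171 and 3213 with none). Leaving out 1 library gave 3 to 5 pathway genes higher and 6 to 8 lower. The log2 fold change of IGF2R changed sign to -0.0214 with upper-quartile factors, to -0.00866 with at least 10 counts in every library and to -0.00575 with coding genes only, and it ran from -0.0412 to 0.0727 with 1 library left out. IGFBP6 ran from -0.19 to 0.16 in the same way, below 0 without control replicate 1 or SRRM4 KO replicate 2. IGFBP7 kept an adjusted p of at most 0.0487 with 1 library left out. With the longest annotated transcript as length, IGFBP7 took 70.4% of the binding protein sum in control and 84.3% in SRRM4 KO, IGFBP4 22% and 11.1%, and the other 4 together 7.58% and 4.59%, because the summed level depends on the length used. The labels do not say whether same-numbered libraries were paired. These deviated from their group means with r of -0.05, 0.08 and -0.05, against -0.11 to 0.16 for unlike numbers, which cannot settle it. Calls changed for 89 of all genes with the replicate block. With the replicate block, 842 genes were called higher and 1093 lower, 0 calls past the fold threshold changed among the IGF and pathway genes (IGF2BP2, BCL6 and GGA1, which are under it, no longer passed), IGFBP7 stayed at -0.24 and IGF2R at 0.01. GRB14 rests on at most 48 counts per library.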
